A study of Mus musculus with 8 samples.

Results

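The aminoacyl-tRNA synthetases are the enzymes that join each amino acid to its transfer RNA. They were followed here as 36 named genes of the 24328 in the expression table, 20 for the cytosolic enzymes and 16 for the mitochondrial ones, whose symbols end in 2. The genes were taken by symbol from a list of the family, with earlier results of these data known. All 36 symbols were in the table.

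RNA of satellite cells, which are muscle stem cells, was sequenced in 8 libraries, 4 groups of 2, from C57BL/6 mice of 2 months. The sort kept Vcam-positive cells in all groups and left out cells with CD31, CD45 or Sca-1, and polyA RNA was read from SMART-Seq v4 cDNA. PFA-perfused cells are labelled quiescent and came from Pax7-nGFP mice perfused with paraformaldehyde, which fixes the tissue before it is taken apart. PBS-perfused cells came from Pax7-nGFP mice perfused with buffer and were not fixed. Unperfused cells came from wild-type mice that were not perfused. Injury-activated cells came from wild-type, likewise unperfused mice 2.5 days after muscle injury. Setting PFA-perfused beside unfixed cells asks which transcript levels change while living cells are isolated, and setting injury-activated beside unperfused cells asks what activation in the animal adds. Fixation came with a doubled amount of collagenase II and with an RNA kit for paraffin-embedded tissue, so these 3 differences cannot be told apart. The Pax7-nGFP genotype marks both perfused groups, so genotype and perfusion cannot be told apart between PBS-perfused and unperfused cells. Unperfused and injury-activated cells differ from PFA-perfused cells in genotype and perfusion besides those 3 differences, and none of these can be told apart there. Nothing in the labels tells whether the 2 libraries of a group are from separate mice, so a p-value here covers the spread between libraries, which may be technical.

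Each synthetase recognises 1 amino acid and the matching transfer RNAs, and the ribosome relies on that match to read the genetic code. Cytosol and mitochondria mostly use separate enzymes, all made from nuclear genes. Gars (glycine) and Kars (lysine) are exceptions, each a single gene that serves both compartments, and Eprs joins the glutamate and proline activities in a single protein. Mitochondria charge glutamine through an amidotransferase instead of a synthetase. Uncharged transfer RNA is known to activate the kinase Gcn2, which raises translation of the transcription factor Atf4, and several cytosolic synthetase genes are known Atf4 targets. Quiescent satellite cells are known for low protein synthesis, which increases when they activate.

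Levels are FPKM, sequenced fragments corrected for transcript length and for the number mapped in each library, so they can be compared between genes. The libraries differed in ways that touch every comparison below. Their summed FPKM was between 461454 and 582336, and depth in reads is unknown because the table holds no counts. The ribosomal RNA precursor Rn45s took 9.8% and 19.4% of the total in PFA-perfused replicates 1 and 2, 0.893% and 6.64% in PBS-perfused, 0.0285% and 0.0266% in unperfused and 0.356% and 0.363% in injury-activated libraries. Satellite cell markers summed to 1699 and 1537 FPKM in PFA-perfused, 4072 and 4610.1 in PBS-perfused, 30195 and 43475 in unperfused and 1482 and 1452 in injury-activated libraries, with none of the 8 at 0 in both libraries of a group. Sdc4 alone made 28149 and 40318 FPKM of the unperfused sums. Pax7, the defining transcription factor of satellite cells, ran the other way, at 328 and 567 FPKM in PFA-perfused, 48.3 and 79.6 in PBS-perfused, 19.8 and 20.4 in unperfused and 4.59 and 4.40 in injury-activated libraries. Of the 8 markers 3 were higher and 3 lower in PBS-perfused than in PFA-perfused cells, 4 and 3 in unperfused than in PFA-perfused, 3 and 4 in unperfused than in PBS-perfused and 1 and 5 in injury-activated than in unperfused cells. Endothelial markers summed to 131 and 92.3 FPKM in PBS-perfused libraries and to 10.3 or less in the others, with 6 of 6 higher in PBS-perfused than in PFA-perfused cells. Markers of haematopoietic cells summed to 7.00 and 7.16 FPKM in PFA-perfused libraries, where Itgam was at 0, and to between 26.7 and 67.5 in the other groups. Cd68 alone made 32.1 and 23.0 FPKM of the unperfused sums, while Lyz2 was at 0.39 and 0.32 FPKM there against 1.86 and 1.88 in PFA-perfused libraries. Of the 4 tested, 1 was higher and 1 lower in unperfused than in PFA-perfused cells. Of 6 fibro-adipogenic markers, 5 were higher and 1, Dpt, lower in PBS-perfused than in PFA-perfused cells, and 4 were higher and 1 lower in injury-activated than in unperfused cells. Their sums were 650.4 and 328 FPKM in PFA-perfused, 158 and 385 in PBS-perfused, 493 and 472 in unperfused and 67.1 and 59.5 in injury-activated libraries, of which Dpt made 633, 318, 69.4, 259.8, 474, 456, 5.81 and 5.61 FPKM. Tenocyte markers summed to 6.48 and 1.72 FPKM in PFA-perfused, 20.3 and 56 in PBS-perfused, 9.93 and 6.23 in unperfused and 33.2 and 27.9 in injury-activated libraries, with 2 of 3 higher in PBS-perfused than in PFA-perfused and 3 of 3 higher in injury-activated than in unperfused cells. Myofibre markers summed to 196 and 154 FPKM in injury-activated libraries and to 43.3 or less elsewhere. Acta1 made 133 and 93.9 FPKM and Tnnt3 60.2 and 58.6 FPKM of the injury-activated sums. Ckm was at 2.97 and 1.81 FPKM and Myh4 at 0.176 and 0.0768 FPKM there, within their range in the other groups. The part of these differences in the results below was not tested. In bulk RNA, fewer cells of a type and less RNA per cell cannot be told apart.

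Differences are given on the log2(FPKM + 1) scale, which understates the change of low genes, as the first group minus the second with the standard error (SE) of the fit, and calls were made in limma at 0.05 after Benjamini-Hochberg adjustment over 12515 tested genes. Of the 36 synthetases, 35 were tested, each at 1 FPKM or more in at least 4 libraries. Pars2, the mitochondrial prolyl-tRNA synthetase, was below 1 FPKM in all 8 libraries, from 0.0632 to 0.876, and was not tested. Because most genes shifted one way between some groups, counts are also given after trimmed mean scaling, which sets the bulk of the genes level between libraries. Over all tested genes, the median of PBS-perfused minus PFA-perfused moved under it from -0.50 to -0.05, that of unperfused minus PFA-perfused from -0.81 to -0.03 and that of unperfused minus PBS-perfused from -0.36 to -0.04.

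The promoters of 5 cytosolic members, Aars, Gars, Iars, Tars and Yars, hold the 8-letter composite element TGATGNAA. This sequence is known to be bound by Atf4 with C/EBP proteins. Every member found to hold it is printed here, in part because all 5 were called higher in PBS-perfused than in PFA-perfused cells. Between unperfused and PFA-perfused cells Gars was not called. RefSeq promoters on GRCm38.p6, which run from 250 bases before to 50 after the start of a gene, were matched for 27 of the 36 genes, 13 cytosolic and 14 mitochondrial. The stretches below run from 120 bases before to 30 after the start, 5′ to 3′ on the strand of the gene, with the element in capitals. They lie at chr8:111033722-111033871 on the plus strand for Aars (alanine), chr6:55037881-55038030 on the plus strand for Gars, chr13:49682010-49682159 on the plus strand for Iars (isoleucine), chr15:11399629-11399778 on the minus strand for Tars (threonine) and chr4:129189783-129189932 on the plus strand for Yars (tyrosine).
Aars: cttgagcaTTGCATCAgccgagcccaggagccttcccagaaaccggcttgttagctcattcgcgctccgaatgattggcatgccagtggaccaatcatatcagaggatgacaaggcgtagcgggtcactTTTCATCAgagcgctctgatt
Gars: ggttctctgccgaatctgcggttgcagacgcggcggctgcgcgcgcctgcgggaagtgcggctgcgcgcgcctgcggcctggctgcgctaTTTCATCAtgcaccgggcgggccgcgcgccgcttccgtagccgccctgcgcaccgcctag
Iars: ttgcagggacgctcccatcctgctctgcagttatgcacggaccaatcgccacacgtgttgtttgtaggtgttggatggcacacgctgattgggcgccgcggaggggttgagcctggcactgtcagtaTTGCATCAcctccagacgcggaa
Tars: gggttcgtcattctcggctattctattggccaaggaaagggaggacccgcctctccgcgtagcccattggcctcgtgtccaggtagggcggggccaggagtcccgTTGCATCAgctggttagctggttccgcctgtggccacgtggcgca
Yars: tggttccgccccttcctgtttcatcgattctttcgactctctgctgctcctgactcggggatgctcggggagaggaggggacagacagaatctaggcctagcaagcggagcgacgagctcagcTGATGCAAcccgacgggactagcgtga

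Counting from 1 at the start site, with negative numbers before it, Aars holds the element at -112 to -105 and again at 10 to 17, Gars at -30 to -23, Iars at 8 to 15, Tars at -15 to -8 and Yars at 4 to 11. Yars holds it on the strand of the gene and the other 4 on the opposite strand. Both strands of each promoter were searched. The element was present in 5 of 13 matched cytosolic synthetases (38.5%), in 0 of 14 mitochondrial ones, in 245 of 9303 tested genes with a promoter (2.63%) and in 1219 of all 27025 promoter genes (4.51%). The ETS core CCGGAAG, a motif common in housekeeping promoters, was present in 5 of 13 cytosolic members (38.5%), 4 of 14 mitochondrial members (28.6%) and 20.3% of tested genes with a promoter (9.93% of all). No match of it overlapped a match of the composite element in these genes. A match is a description of letters in this window and was not tested for binding. Promoters of Cars, Hars, Lars, Nars, Rars, Vars, Wars, Hars2 and Pars2 were not used here.

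Among the cytosolic enzymes Nars (asparagine) was the highest by mean over the 8 libraries, 281 FPKM, and Vars (valine) the lowest at 8.11 FPKM. In unperfused cells Vars, Mars and Qars were low, with group means of 2.83, 4.33 and 4.39 FPKM. The highest mitochondrial gene was Lars2 (leucine), with a mean of 679 FPKM. The next by mean was Tars2 (threonine) at 23.3 FPKM, followed by Aars2 (alanine) at 18.3 FPKM, which lay above Vars and Qars (8.97 FPKM) and below the other 18 cytosolic genes. In PFA-perfused cells Aars2 (39.7 FPKM) was above Aars (23.4 FPKM) and Hars2 (30.7 FPKM) above Hars (26.2 FPKM). Lars2 was at 1151 and 1630.5 FPKM in PFA-perfused, 257 and 627 in PBS-perfused, 263 and 362 in unperfused and 558 and 586 in injury-activated libraries. The PFA-perfused libraries were the highest, and PBS-perfused replicate 2 stood well above its partner. Rn45s was likewise high in these libraries, at 56137 and 112867 FPKM in PFA-perfused and 4730 and 36839 FPKM in PBS-perfused libraries, and its part in the level of Lars2 was not tested.

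**Figure D1:**
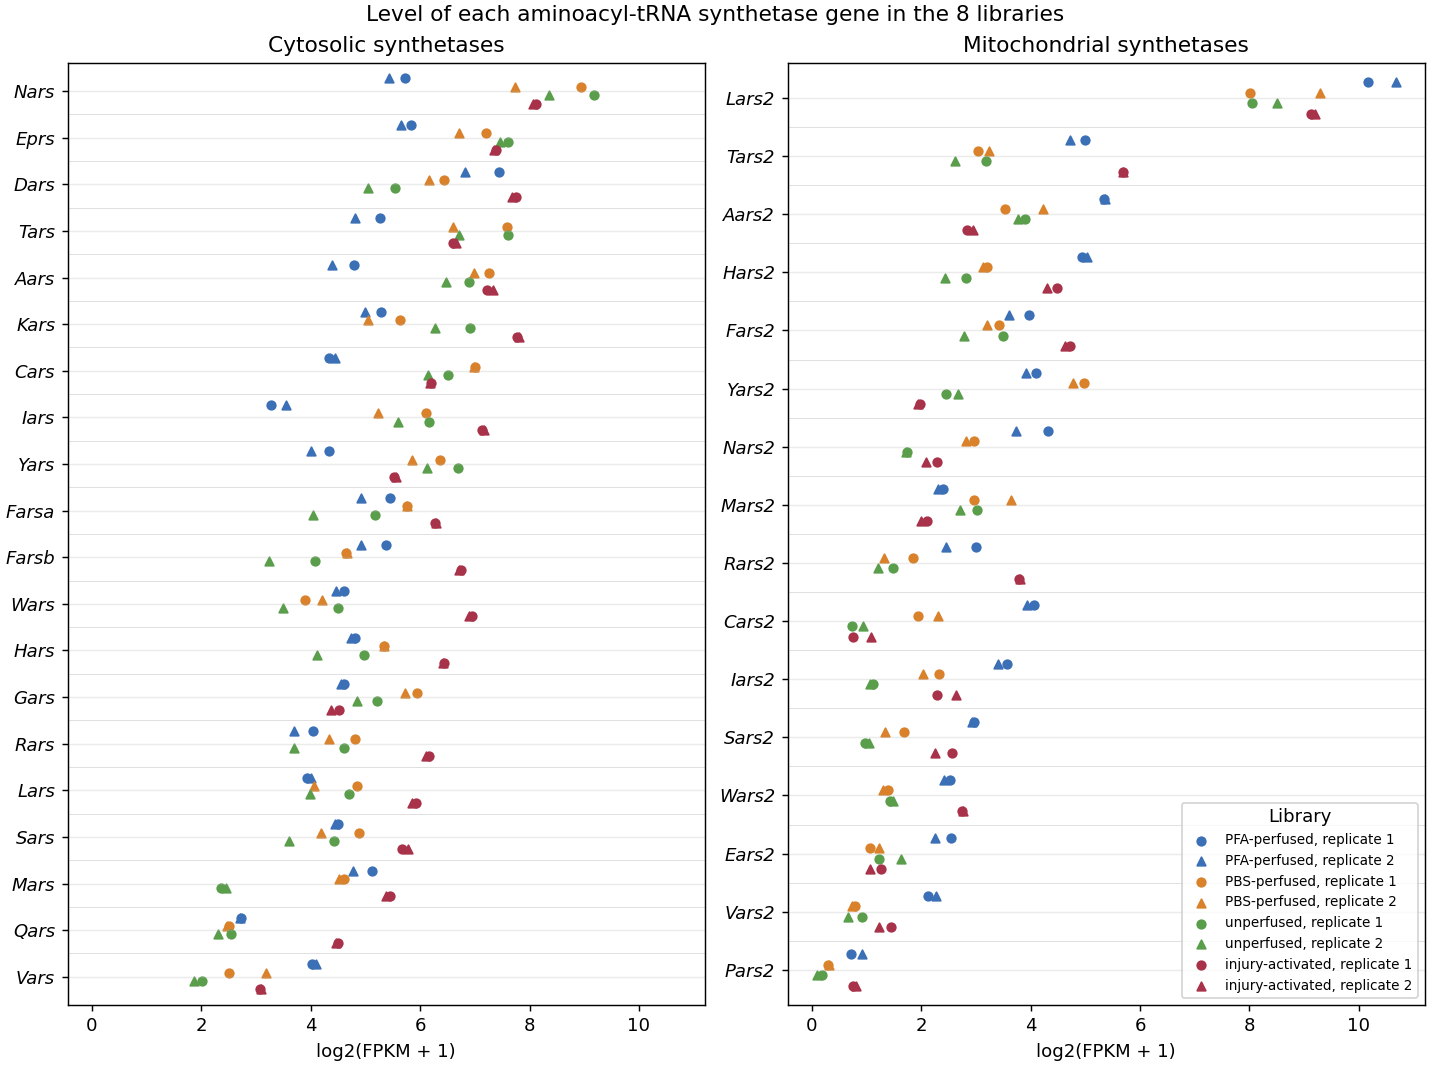
Levels of the 36 synthetase genes in each of the 8 libraries on a logarithmic axis, cytosolic genes and mitochondrial genes apart, with the groups in colour. Lars2 sits far above the other mitochondrial genes, at 257 to 1630.5 FPKM, and Nars spreads from 42.3 to 578 FPKM.

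The 2 compartments ordered the groups differently. By group mean, injury-activated cells held the highest level of 13 of the 20 cytosolic genes, unperfused cells of 4, PBS-perfused cells of 2 and PFA-perfused cells of 1. PFA-perfused cells held the lowest level of 10 cytosolic genes and unperfused cells of 8. Of the 16 mitochondrial genes, 10 were highest in PFA-perfused cells, 4 in injury-activated and 2 in PBS-perfused cells, and 10 were lowest in unperfused cells. These counts rest on unscaled FPKM, where 46.2% of all tested genes were called lower in PBS-perfused than in PFA-perfused cells. For unperfused and injury-activated cells against PFA-perfused cells the shares were 56.3% and 47.3%. Highest and lowest groups were not counted over all genes, and how far the counts follow this shift was not tested.

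Summed over the 20 cytosolic genes, the level was 693 and 552 FPKM in PFA-perfused, 1699 and 1134 in PBS-perfused, 1732 and 1115 in unperfused and 2040.3 and 2028 in injury-activated libraries. The PFA-perfused sums lay below all others, and the PBS-perfused and unperfused sums overlapped. Summed over the 15 mitochondrial genes other than Lars2, it was 207 and 186 FPKM in PFA-perfused, 95.0 and 99.8 in PBS-perfused, 60.7 and 50 in unperfused and 145 and 141 in injury-activated libraries, with no overlap between any of the 4 groups. These sums are of unscaled FPKM. Trimmed mean scaling divides a level by a factor, 1.58 and 1.44 in PFA-perfused and 0.937 and 0.9 in injury-activated libraries. Which of these groups has the higher mitochondrial sum therefore depends on the scaling. The ratio of the cytosolic to this mitochondrial sum was 3.34 and 2.96 in PFA-perfused, 17.9 and 11.4 in PBS-perfused, 28.6 and 22.3 in unperfused and 14.0 and 14.4 in injury-activated libraries. A ratio within a library does not depend on how the library is scaled, and both PFA-perfused values lay below every other. The ratio of the median cytosolic to the median mitochondrial gene, with Lars2 kept, was 1.98 and 2.11 in PFA-perfused libraries and between 7.6 and 18.6 in the others.

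**Figure D2:**
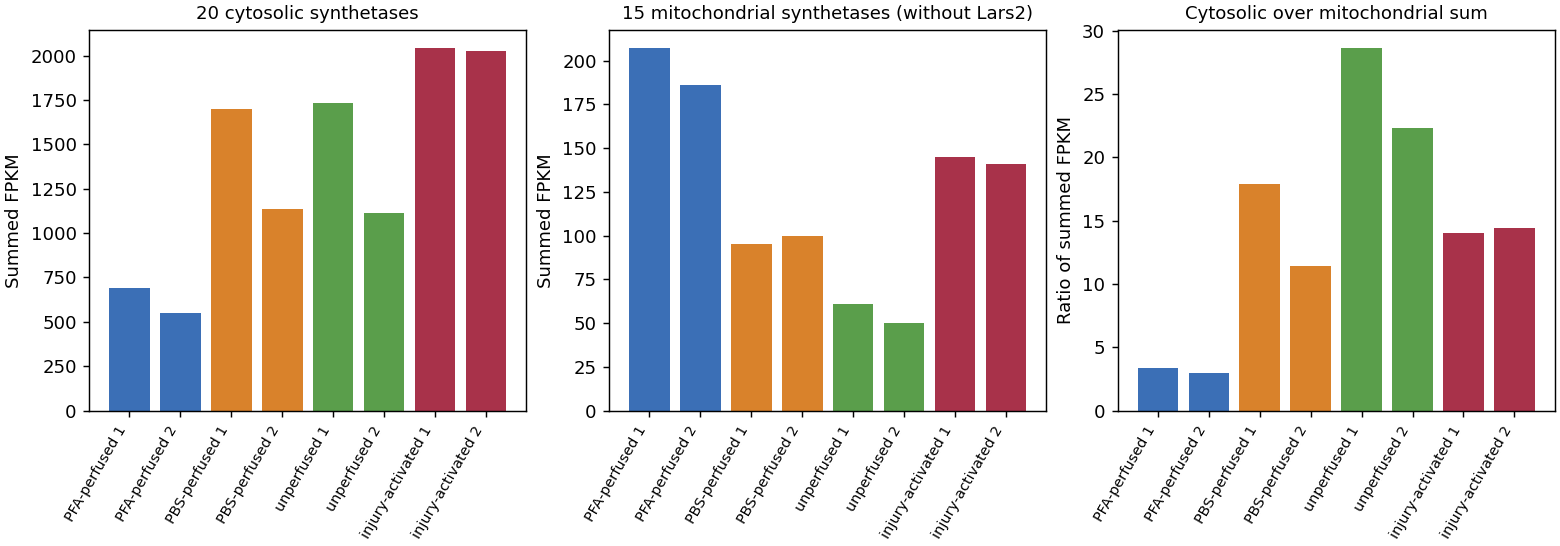
Summed FPKM of the 20 cytosolic genes, summed FPKM of the 15 mitochondrial genes without Lars2, and their ratio, with 1 bar per library and the groups in colour. In unscaled FPKM the PFA-perfused libraries have the lowest cytosolic sums (693 and 552 FPKM) and the highest mitochondrial sums (207 and 186 FPKM). Their ratios are 3.34 and 2.96.

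In PBS-perfused set against PFA-perfused cells, 8 of 20 cytosolic synthetases were higher and 2 lower, against 17.8% of all tested genes called higher and 46.2% called lower. The 8 were Nars, Cars (cysteine), Aars, Iars, Tars, Yars, Gars and Eprs. Nars was at 51.8 and 42.3 FPKM in PFA-perfused and at 491 and 213 FPKM in PBS-perfused libraries. Cars was at 19.2 and 20.9 against 127 and 126 FPKM, and Aars at 26.8 and 20 against 153 and 126 FPKM. In all 3 genes both PBS-perfused libraries were well above both PFA-perfused ones, although the PBS-perfused replicates of Nars differed among themselves by more than those of Cars. The difference was 2.76 ± 0.41 for Nars (limma, adjusted p = 0.000448), 2.60 ± 0.21 for Cars (adjusted p = 2.97e-05) and 2.53 ± 0.25 for Aars (adjusted p = 6.7e-05). Iars went from 8.66 and 10.7 to 68.1 and 36.7 FPKM, Tars from 37.4 and 26.9 to 190.3 and 95.7 FPKM and Yars from 19.3 and 15 to 81.5 and 56.4 FPKM. These 3 rose by between 1.94 and 2.26. The smallest rises were those of Gars (1.26 ± 0.21) and Eprs (1.22 ± 0.24).

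Vars and Dars (aspartate) went the other way. Vars was at 15.3 and 16.2 FPKM in PFA-perfused and 4.69 and 8.09 FPKM in PBS-perfused libraries, a difference of -1.22 ± 0.24 (limma, adjusted p = 0.00202). Dars was at 173 and 112 against 85.9 and 70.2 FPKM, a difference of -0.84 ± 0.29 (adjusted p = 0.0288). The Dars libraries did not overlap, but its call was lost after trimmed mean scaling (difference -0.27), without PFA-perfused replicate 1 (difference -0.53, adjusted p = 0.213), without PBS-perfused replicate 2 (-0.69, adjusted p = 0.119) and, with the difference still at -0.84, without injury-activated replicate 1 or 2 (adjusted p = 0.0522 and 0.0523). The other 10 cytosolic genes did not pass the test, with differences from -0.49 for Wars and Farsb to 0.70 for Rars. The median over the 20 was 0.58, beside -0.50 for all tested genes. After trimmed mean scaling 13 were higher and 1 lower, beside 27.4% of all genes higher and 27.8% lower, as Rars, Farsa, Hars, Lars and Kars joined the higher ones and Dars left the lower ones.

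Mitochondrial synthetases moved against this: 12 of the 15 tested were lower in PBS-perfused than in PFA-perfused cells and 2 were higher, and the same counts held after trimmed mean scaling. The shares of all tested genes were 46.2% lower and 17.8% higher, and 27.8% and 27.4% after that scaling. Cars2 (cysteine) was at 15.7 and 14.3 FPKM in PFA-perfused and 2.82 and 3.93 FPKM in PBS-perfused libraries. Hars2 (histidine) was at 29.5 and 31.8 against 8.2 and 7.77 FPKM, and Tars2 at 30.7 and 25.3 against 7.21 and 8.39 FPKM. The libraries of all 3 genes were far apart. The differences were -1.88 ± 0.21 for Cars2 (limma, adjusted p = 0.000101), -1.82 ± 0.21 for Hars2 (adjusted p = 0.000115) and -1.72 ± 0.24 for Tars2 (adjusted p = 0.000292). Lars2 fell by 1.77 with an SE of 0.43. The other 8 lower genes, Aars2, Vars2, Sars2, Iars2, Ears2, Wars2, Rars2 and Nars2, had differences from -1.48 to -1.12.

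Mars2 (methionine) and Yars2 (tyrosine) were the mitochondrial genes that rose. Mars2 was at 4.24 and 3.97 FPKM in PFA-perfused and 6.80 and 11.5 FPKM in PBS-perfused libraries (0.95 ± 0.25, limma, adjusted p = 0.00878). Yars2 was at 16.1 and 14.1 against 30.3 and 26.4 FPKM (0.87 ± 0.19, adjusted p = 0.00392). Fars2 (phenylalanine) alone among the tested mitochondrial genes did not pass (-0.47 ± 0.27). The median over the 15 was -1.30, and -0.79 after trimmed mean scaling, beside -0.50 and -0.05 for all tested genes.

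Unperfused cells, set against the same PFA-perfused libraries, gave 8 higher and 4 lower cytosolic genes of 20, where 17.4% of all tested genes were called higher and 56.3% lower. This comparison shares its PFA-perfused libraries with the previous one. Nars was at 578 and 327 FPKM in unperfused libraries, 3.19 ± 0.41 above PFA-perfused cells (limma, adjusted p = 0.000101). Iars was at 70.9 and 47.5 FPKM, 2.47 ± 0.32 above (adjusted p = 9.58e-05), and Yars at 102 and 68.7 FPKM, 2.23 ± 0.27 above (adjusted p = 7.29e-05). Tars, Aars, Cars, Eprs and Kars were higher by between 1.44 and 2.12. Kars was at 38.2 and 31.0 FPKM in PFA-perfused and 119.9 and 76.0 FPKM in unperfused libraries. Gars was at 23.4 and 22.5 against 35.9 and 27.8 FPKM, without overlap, and did not pass the test (0.45 ± 0.21).

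The cytosolic gene with the largest fall was Mars (methionine), at 33.8 and 26.2 FPKM in PFA-perfused and 4.16 and 4.50 FPKM in unperfused libraries (-2.53 ± 0.20, limma, adjusted p = 6.41e-06). Its gene overlaps Ddit3 in RefSeq, and without strand in the record the reads of both cannot be told apart. Ddit3 was at 12.8 and 17.0 FPKM in PFA-perfused, 43.4 and 41.3 in PBS-perfused, 10.2 and 6.26 in unperfused and 6.20 and 6.82 in injury-activated libraries. Vars fell to 3.01 and 2.64 FPKM (-2.13 ± 0.24) and Dars to 45.8 and 31.9 FPKM (-1.84 ± 0.29). Farsb, the beta subunit of the phenylalanine enzyme, fell from 40.5 and 29.4 to 16.0 and 8.39 FPKM (-1.49 ± 0.29), a call lost after trimmed mean scaling (-0.47). Its partner subunit Farsa was at 42.5 and 29.3 against 35.2 and 15.5 FPKM, and these libraries overlapped (-0.57 ± 0.35). Without unperfused replicate 1 the number of lower cytosolic genes was 8 instead of 4, and after trimmed mean scaling 13 were higher and 3 lower, beside 33.6% and 34.5% of all genes. Gars, Lars, Rars, Hars and Qars then joined the higher ones, and the differences of Hars and Qars turned from -0.22 and -0.30 to 0.81 and 0.60. The median over the 20 was 0.33, and 1.35 after scaling. It rested on the unperfused libraries, as it was -0.07 without unperfused replicate 1 and 0.68 without unperfused replicate 2.

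No mitochondrial synthetase was called higher in unperfused than in PFA-perfused cells, and 13 of 15 were called lower. Across all tested genes 17.4% were higher and 56.3% lower, and 33.6% and 34.5% after trimmed mean scaling. Cars2 was at 0.666 and 0.909 FPKM in unperfused libraries (-3.17 ± 0.21, limma, adjusted p = 2.55e-06). Iars2 (isoleucine) was at 10.8 and 9.61 FPKM in PFA-perfused and 1.16 and 1.10 FPKM in unperfused libraries (-2.39 ± 0.20, adjusted p = 9.46e-06). Hars2 was at 6.02 and 4.40 FPKM (-2.36 ± 0.21, adjusted p = 1.04e-05). Mars2 (0.51) and Fars2 (-0.65) did not pass. Over the 15 genes the median was -1.52. After trimmed mean scaling it was -0.75, 7 genes were lower and 1, Mars2 (1.40), was higher, and the calls of Lars2 (-1.07), Aars2 (-0.48), Yars2 (-0.48), Rars2 (-0.57), Wars2 (-0.22) and Ears2 (-0.17) were lost. After quantile normalization the differences of Ears2 (0.07) and Wars2 (0.01) changed sign. Mars2 was also called higher without PBS-perfused replicate 1 or 2, which gave 1 higher gene each.

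Between unperfused and PBS-perfused cells, both unfixed, only Kars was higher among the cytosolic genes and 8 were lower, beside 13.1% and 36.5% of all tested genes. Kars was at 48.8 and 32.2 FPKM in PBS-perfused and 119.9 and 76.0 FPKM in unperfused libraries (1.25 ± 0.29, limma, adjusted p = 0.00697). Mars was at 23.5 and 22 against 4.16 and 4.50 FPKM (-2.15 ± 0.20, adjusted p = 4.36e-05). The other lower genes were Farsa, Farsb, Dars, Vars, Gars, Hars and Cars, from -1.15 to -0.67. Their calls were less firm than that of Mars, since the number of lower genes was 3 without PBS-perfused replicate 1, 4 without PBS-perfused replicate 2 and 2 without unperfused replicate 2. After trimmed mean scaling only Mars was lower (-1.72), while Kars, Eprs (1.09) and Yars (0.81) were higher, beside 23.3% of all genes higher and 24.1% lower. Over the 20 the median was -0.43, and it turned to 0.07 after scaling. Leaving out PBS-perfused replicate 1 gave -0.20, and leaving out unperfused replicate 1 or 2 gave -0.75 or -0.04. Of the 7 genes called higher than in fixed cells in both unfixed groups, Cars was lower here (-0.67 ± 0.21, limma, adjusted p = 0.0284). Nars, Eprs, Yars, Iars, Tars and Aars differed by 0.43, 0.58, 0.30, 0.21, 0.06 and -0.44 and did not pass, with adjusted p from limma between 0.077 and 0.903.

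Of 15 mitochondrial genes, 4 were lower in unperfused than in PBS-perfused cells and 0 higher. The shares of all tested genes were 36.5% lower and 13.1% higher, and 24.1% and 23.3% after trimmed mean scaling. Yars2 was at 30.3 and 26.4 FPKM in PBS-perfused and 4.48 and 5.33 FPKM in unperfused libraries (-2.32 ± 0.19, limma, adjusted p = 2.44e-05). Cars2, Nars2 (asparagine) and Iars2 had differences from -1.28 to -1.09. Nars2 was at 6.85 and 6.09 against 2.32 and 2.28 FPKM. These 4 calls were also made after trimmed mean scaling, where the differences were -1.87 for Yars2, -1.02 for Cars2, -0.80 for Nars2 and -0.79 for Iars2. Over the 15 the median was -0.38 and turned to 0.09 after scaling.

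In injury-activated cells 13 of 20 cytosolic synthetases were higher than in unperfused cells and 2 lower, beside 40.8% and 29.3% of all tested genes. Farsb was at 16.0 and 8.39 FPKM in unperfused and 106 and 104 FPKM in injury-activated libraries. Mars was at 42.7 and 40.3 FPKM after injury, and Wars (tryptophan) went from 21.7 and 10.2 to 123 and 118 FPKM. The injury-activated replicates lay close together in all 3 genes and far above the unperfused ones. The differences were 3.07 ± 0.29 for Farsb (limma, adjusted p = 1.73e-05), 3.0 ± 0.20 for Mars (adjusted p = 2.77e-06) and 2.93 ± 0.31 for Wars (adjusted p = 3.42e-05). Dars, Qars, Rars, Hars, Sars, Farsa, Lars, Iars, Kars and Vars were higher by between 1.15 and 2.42. Qars (glutamine), at 3.94 to 5.62 FPKM in the other 6 libraries, was at 21.6 and 21.1 FPKM after it. Of the 8 cytosolic genes higher in PBS-perfused than in PFA-perfused cells, 1, Iars, was higher in this comparison.

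Yars and Gars were lower after injury. Yars was at 45.2 and 46.1 FPKM against 102 and 68.7 FPKM in unperfused libraries (-0.86 ± 0.27, limma, adjusted p = 0.0191). Gars was at 21.9 and 19.6 against 35.9 and 27.8 FPKM (-0.59 ± 0.21, adjusted p = 0.0325). Neither gene overlapped between the groups, but both calls were lost when either injury-activated library or unperfused replicate 1 was left out. Without injury-activated replicates 1 and 2 in turn the differences were -0.84 and -0.87 for Yars (limma, adjusted p = 0.0901 and 0.0805) and -0.67 and -0.51 for Gars (adjusted p = 0.108 and 0.207), near those with all libraries. Without unperfused replicate 1 they were smaller, -0.58 for Yars (adjusted p = 0.108) and -0.41 for Gars (adjusted p = 0.114). Nars (276 and 267 FPKM after injury), Tars, Eprs and Cars did not pass, with differences from -0.68 to -0.14, and were called lower after trimmed mean scaling (from -1.05 to -0.51). The median over the 20 was 1.40, and 1.05 after scaling with 13 higher and 6 lower, beside 36.6% and 36.1% of all genes. For all tested genes the median was 0.17, and -0.04 after scaling.

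Mitochondrial genes split in the same comparison, with 8 of 15 higher, 3 lower and 4 not called, and the same counts of 8 and 3 after trimmed mean scaling. Across all tested genes 40.8% were higher and 29.3% lower, and 36.6% and 36.1% after that scaling. Tars2 was at 8.06 and 5.12 FPKM in unperfused and 50.8 and 50.6 FPKM in injury-activated libraries (2.80 ± 0.24, limma, adjusted p = 9.05e-06). Rars2 (arginine) went from 1.81 and 1.31 to 12.8 and 13.0 FPKM (2.45 ± 0.26, adjusted p = 3.09e-05), and Hars2 from 6.02 and 4.40 to 21.4 and 18.6 FPKM (1.77 ± 0.21, adjusted p = 5.69e-05). Hars2 shares part of its locus with Hars, which was also higher (1.89 ± 0.27), and their reads cannot be told apart without strand. The same limit holds where Aars overlaps Ddx19b, Farsb Sgpp2, Wars Wdr25, Iars2 Rab3gap2 and Rars2 Orc3 in RefSeq. The part of these neighbours in the levels of the 5 genes was not tested. Fars2, Sars2, Iars2, Wars2 (tryptophan) and Vars2 (valine) were higher by between 0.55 and 1.54. Aars2 fell from 13.8 and 12.6 to 6.13 and 6.66 FPKM (-0.94 ± 0.25), Mars2 from 7.11 and 5.52 to 3.31 and 3.01 FPKM (-0.81 ± 0.25) and Yars2 from 4.48 and 5.33 to 2.93 and 2.82 FPKM (-0.60 ± 0.19).

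The calls of these falls were lost in fits with 1 library fewer, where the differences stayed close to those above. Without injury-activated replicate 1 none of the 3 passed, with differences of -0.89 for Aars2, -0.86 for Mars2 and -0.62 for Yars2 (limma, adjusted p = 0.0533, 0.0595 and 0.107), and 7 genes were called in all instead of 11. Without injury-activated replicate 2, Mars2 (-0.75, adjusted p = 0.0925) and Yars2 (-0.59, adjusted p = 0.127) did not pass. Mars2 did not pass without unperfused replicate 1 (-0.65, adjusted p = 0.0957), nor Yars2 without unperfused replicate 2 (-0.50, adjusted p = 0.0687). The rise of Vars2 was not called without unperfused replicate 2 (0.42, adjusted p = 0.092) or without injury-activated replicate 1 (0.45, adjusted p = 0.149). Over these 15 genes the median was 0.89, and 0.52 after trimmed mean scaling.

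Compared with PFA-perfused cells, injury-activated cells had 16 of 20 cytosolic genes higher and 1 lower, beside 26.1% and 47.3% of all tested genes. After trimmed mean scaling 19 were higher and 0 lower, beside 38.5% and 34.6%. Iars was at 8.66 and 10.7 FPKM in PFA-perfused and 139 and 143 FPKM in injury-activated libraries (3.74 ± 0.32, limma, adjusted p = 7.33e-06). Aars was at 149 and 161 FPKM after injury (2.69 ± 0.25, adjusted p = 1.37e-05), and Kars at 218 and 223 FPKM (2.64 ± 0.29, adjusted p = 3.8e-05). Nars, Wars and Rars followed with 2.26 to 2.51. Vars was the lower one, at 7.41 and 7.53 against 15.3 and 16.2 FPKM (-0.98 ± 0.24), and was not called after scaling (-0.32). Gars (-0.14), Mars (0.46) and Dars (0.58) did not pass, and the difference of Gars turned to 0.54, called, after scaling. The rise of Farsa (1.11 ± 0.35) was not called without PFA-perfused replicate 2 (0.85, limma, adjusted p = 0.119) or without injury-activated replicate 1 or 2 (1.12 and 1.10, adjusted p = 0.0596 and 0.0642). Groups of 2 seldom overlap in these data, so separation of the libraries says little by itself. The libraries did not overlap in 20 of 20 cytosolic and 15 of 15 mitochondrial genes in this comparison, beside 91.3% of all tested genes. The counts were 18 and 15 for PBS-perfused against PFA-perfused (79.9% of all), 15 and 15 for unperfused against PFA-perfused (85.6%), 11 and 7 for unperfused against PBS-perfused (72.1%) and 19 and 13 for injury-activated against unperfused cells (89.2%). The median over the 20 was 1.65, beside -0.48 for all tested genes.

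Against PFA-perfused cells the mitochondrial genes were mostly lower after injury, 10 of 15, with 3 higher. The shares of all tested genes were 47.3% lower and 26.1% higher, and 34.6% and 38.5% after trimmed mean scaling. Cars2 was at 0.687 and 1.11 FPKM (-3.09 ± 0.21, limma, adjusted p = 2.02e-06), Aars2 went from 39.3 and 40.1 to 6.13 and 6.66 FPKM (-2.46 ± 0.25, adjusted p = 1.93e-05) and Yars2 from 16.1 and 14.1 to 2.93 and 2.82 FPKM (-2.05 ± 0.19, adjusted p = 1.41e-05). Rars2 (1.08 ± 0.26), Fars2 (0.89 ± 0.27) and Tars2 (0.84 ± 0.24) were higher. The number called fell from 13 to 8 without PFA-perfused replicate 2, without injury-activated replicate 1 and without injury-activated replicate 2, and each time 1 of the 3 higher genes, Rars2, was kept. Lars2 (-1.26 ± 0.43) lost its call without each of these 3 libraries, at differences of -1.01, -1.22 and -1.30 (adjusted p = 0.134, 0.0931 and 0.0785). Hars2 (-0.59) and Sars2 (-0.54) were called lower but turned to 0.09 and 0.06, not called, after trimmed mean scaling, which left 5 lower and 4 higher. Over all 15 the median was -0.86, and -0.35 after scaling.

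**Figure D3:**
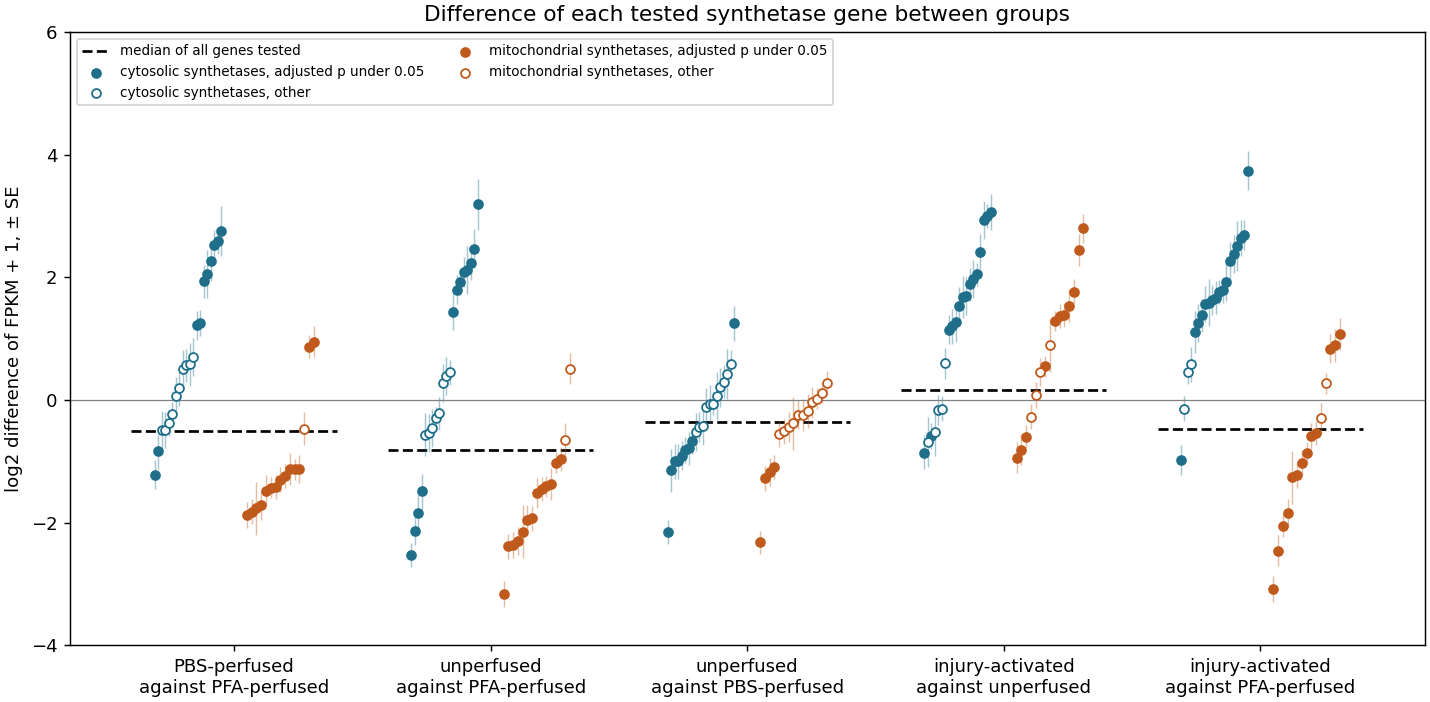
Log2 differences on the log2(FPKM + 1) scale with their SE for the 35 tested synthetases in the 5 comparisons, filled where called. For PBS-perfused and for unperfused against PFA-perfused cells, Nars, Iars, Aars, Tars, Yars and Cars lie to the higher side (1.93 to 3.19) and Cars2 and Hars2 to the lower side.

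Taking the cytosolic and mitochondrial enzyme for the same amino acid as a pair cancels any scaling of the library apart from the pseudocount. Eprs was paired with both Ears2 (glutamate) and Pars2, and Farsa with Fars2, which gave 16 pairs. Pars2 was below 1 FPKM in all 8 libraries and was not tested. With the pseudocount its ratio therefore mostly follows Eprs, which is counted again with Ears2. In PFA-perfused cells the enzymes of the cysteine, histidine, isoleucine, threonine and tyrosine pairs were at similar levels, and in all 6 other libraries the cytosolic one was higher, by amounts that differed between groups. The threonine ratio was as low as 0.91 and 0.96 in injury-activated libraries and the tyrosine ratio 1.40 and 1.06 in PBS-perfused ones. The log2 ratio for cysteine, Cars over Cars2, was 0.27 and 0.51 in PFA-perfused, 5.07 and 4.69 in PBS-perfused, 5.77 and 5.22 in unperfused and 5.44 and 5.10 in injury-activated libraries. For alanine, Aars over Aars2, it was -0.53 and -0.97 in PFA-perfused libraries and between 2.71 and 4.40 in the other 6. Aars2 was the higher gene of its pair in both PFA-perfused libraries and in none of the other 6.

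From PFA-perfused to PBS-perfused cells the ratio was higher in both libraries in 14 of 16 pairs, lower in 1 and overlapping in 1, with a median change of 2.04. The lower pair was methionine, where Mars over Mars2 went from 2.73 and 2.46 to 1.65 and 0.87, and the overlapping one was valine. Unperfused against PFA-perfused cells gave 12 higher, 2 lower and 2 overlapping pairs with a median of 2.50, and injury-activated against PFA-perfused cells 15 higher and 1 overlapping with a median of 2.18. These 3 comparisons share the PFA-perfused libraries. Among single genes, 79.9%, 85.6% and 91.3% of all tested did not overlap in them, and ratios of other genes were not counted. The pair counts were more even between the unfixed groups. Unperfused against PBS-perfused cells gave 5 higher, 3 lower and 8 overlapping pairs (median 0.13), and injury-activated against unperfused cells 4 higher, 4 lower and 8 overlapping (median 0.11).

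Within the last comparison the pairs went far in both directions. For methionine the ratio went from -0.65 and -0.25 in unperfused to 3.34 and 3.36 in injury-activated libraries. For threonine, Tars over Tars2 went from 4.42 and 4.09 to 0.91 and 0.96, because Tars2 was higher after injury and Tars was at 96.1 and 99.5 against 193 and 104 FPKM. For leucine the mitochondrial gene was the higher one in every library, and the ratio was -6.24 and -6.68 in PFA-perfused libraries and between -5.23 and -3.16 elsewhere. The ratios were not tested.

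**Figure D4:**
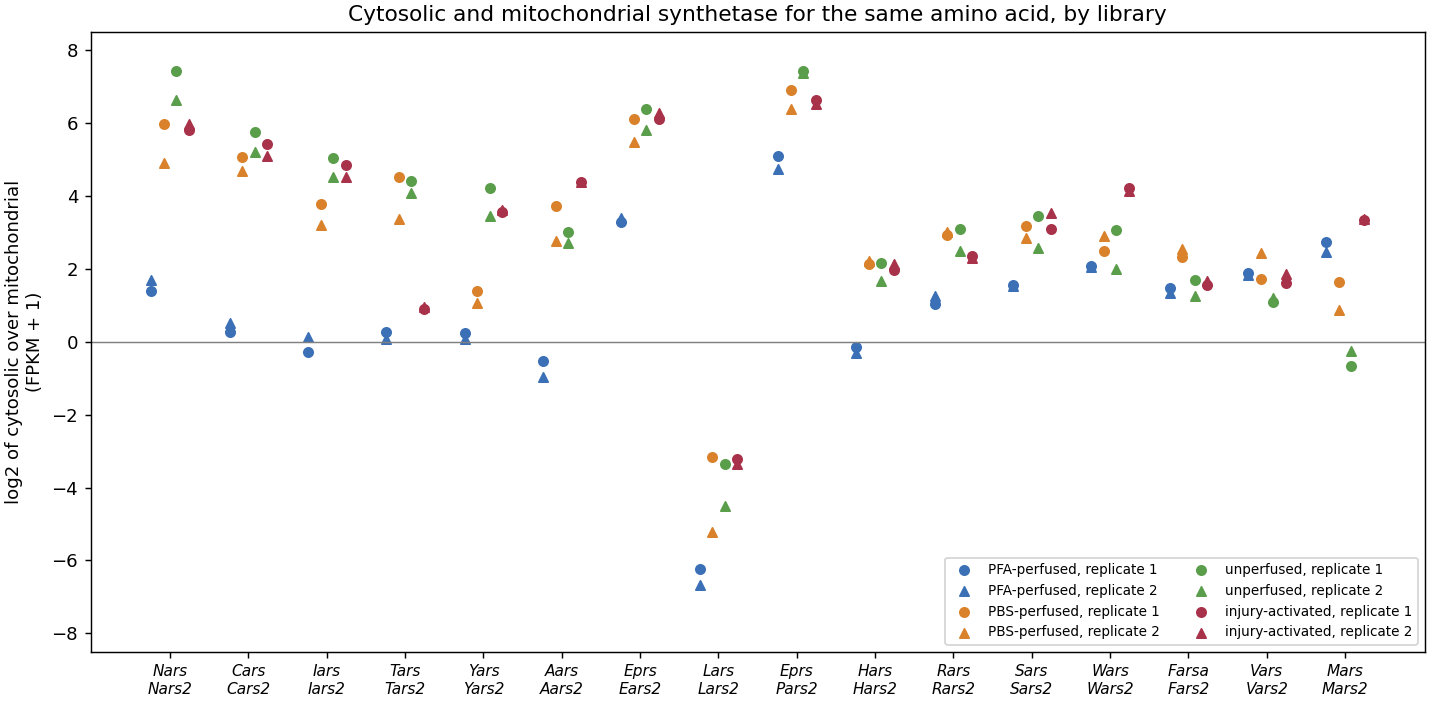
Log2 ratio of cytosolic over mitochondrial FPKM + 1 for 16 pairs of enzymes, 1 point per library, with the 0 line where both are equal. PFA-perfused points lie lowest in most pairs, as for Cars over Cars2 at 0.27 and 0.51 against 4.69 to 5.77 elsewhere.

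The 8 cytosolic synthetases of the multisynthetase complex, a large particle that holds Eprs, Lars, Iars, Mars, Qars, Rars, Kars and Dars on 3 scaffold proteins, were set beside the other 12. Between injury-activated and unperfused cells 40.8% of all tested genes were higher and 29.3% lower. There 7 of 8 in the complex were higher and 0 lower, with a median of 1.76, and 6 of 12 others were higher and 2 lower, with a median of 0.87. Eprs was the complex member that did not pass (-0.16), and it was called lower after trimmed mean scaling (-0.53). Between PBS-perfused and PFA-perfused cells the complex had 2 higher (Iars and Eprs) and 1 lower (Dars), with a median of 0.35, and the others 6 higher and 1 lower, with a median of 0.92. The difference between these 2 sets was not tested. The 3 scaffold genes Aimp1, Aimp2 and Eef1e1 were all higher in injury-activated than in unperfused cells. Aimp2 was at 13.0 and 5.70 FPKM in unperfused and 98.1 and 96.1 FPKM in injury-activated libraries (3.34 ± 0.32, limma, adjusted p = 1.68e-05). Aimp1 was at 5.88 and 2.83 against 37.4 and 35.5 FPKM (2.87 ± 0.27), and Eef1e1 at 47.1 and 30.8 against 107 and 105 FPKM (1.46 ± 0.27). In PBS-perfused against PFA-perfused cells Eef1e1 was higher (1.10 ± 0.27, 0.82 and not called without PFA-perfused replicate 2) and Aimp1 lower (-1.62 ± 0.27). In unperfused against PFA-perfused cells 0 were higher and 2 lower, and in unperfused against PBS-perfused cells 0 and 2. Of all tested genes 56.3% and 36.5% were lower in these comparisons. After trimmed mean scaling the scaffold counts were 1 higher and 1 lower, and 0 and 0. In injury-activated against PFA-perfused cells all 3 were higher, beside 26.1% of all tested genes.

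Cytosolic synthetases also fall into 2 structural classes by the fold of the catalytic site, and the counts of both were alike. Of the 9 class I genes 3 were higher and 1 lower between PBS-perfused and PFA-perfused cells, and of the 10 class II genes 4 and 1, with Eprs, which holds a site of each class, in neither. Between injury-activated and unperfused cells the counts were 7 and 1 in class I and 6 and 1 in class II. Of all tested genes 17.8% were higher and 46.2% lower in the first of these comparisons, and 40.8% and 29.3% in the second.

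Members with and without the composite element were set side by side. All 5 cytosolic members with it, printed above in part because they differ here, were higher in PBS-perfused than in PFA-perfused cells, and of the 8 matched members without it 1 was higher and 1 lower. Among all tested genes with a promoter, 65 of 245 with the element (26.5%) and 1532 of 9058 without it (16.9%) were higher. Between unperfused and PFA-perfused cells 4 of 5 with it and 2 of 8 without it were higher, beside 24.9% and 16.6% of all tested genes with a promoter. Between injury-activated and unperfused cells 1 of 5 (Iars) with it was higher and 2 (Yars and Gars) lower, against 7 of 8 higher without it, beside 40% and 42.2% of all higher. The sets were alike between injury-activated and PFA-perfused cells, with 4 of 5 and 6 of 8 higher, beside 31.8% and 26.7%. Between unperfused and PBS-perfused cells 0 of 5 and 1 of 8 were higher, beside 11% and 12.8%. These counts are a description. Nars and Cars, with the largest rises, were not in the promoter table.

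Known targets and partners of Atf4 were taken as a list of 23 genes, all tested. In PBS-perfused against PFA-perfused cells 16 were higher and 0 lower, beside 17.8% and 46.2% of all tested genes, with a median of 1.46. In unperfused against PFA-perfused cells 12 were higher and 4 lower, beside 17.4% and 56.3%, with a median of 1.16. The endothelial and haematopoietic markers given above, 5 of 6 fibro-adipogenic and 2 of 3 tenocyte markers were also higher in PBS-perfused than in PFA-perfused cells, and their part in these counts was not tested. Chac1, which degrades glutathione, was at 0.258 and 0.0355 FPKM in PFA-perfused, 40.4 and 55.9 in PBS-perfused, 40.5 and 30.2 in unperfused and 4.72 and 5.22 in injury-activated libraries. Ppp1r15a, which brings a phosphatase to eIF2 alpha, was at 22.9 and 17.5 in PFA-perfused, 1085 and 771 in PBS-perfused, 530.1 and 318 in unperfused and 63.1 and 59.9 FPKM in injury-activated libraries. Both were lowest in fixed cells, with PBS-perfused minus PFA-perfused differences of 5.41 ± 0.24 (Chac1, limma, adjusted p = 3.18e-06) and 5.45 ± 0.31 (Ppp1r15a, adjusted p = 7.17e-06). Mthfd2, an enzyme of mitochondrial folate metabolism, was at 1.31 and 1.91 in PFA-perfused, 29.1 and 35.2 in PBS-perfused, 71.8 and 36.6 in unperfused and 88.6 and 94.7 FPKM in injury-activated libraries. Atf4 itself, named after its values were seen, was at 77.5 and 76.9 FPKM in PFA-perfused and at 169 to 321 FPKM in the other 6 libraries.

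After injury the same list split, with 8 higher and 10 lower against unperfused cells (5 and 13 after trimmed mean scaling). Of all tested genes 40.8% were higher and 29.3% lower (36.6% and 36.1% after that scaling). Asns, asparagine synthetase, was at 10.9 and 5.21 FPKM in unperfused and 163 and 162 FPKM in injury-activated libraries (4.25 ± 0.37, limma, adjusted p = 9.74e-06), while Chac1 (-2.59 ± 0.24) and Ppp1r15a (-2.72 ± 0.31) were lower. Against PFA-perfused cells 14 of the list were higher and 6 lower, beside 26.1% and 47.3% of all tested genes. Between unperfused and PBS-perfused cells 4 were higher and 8 lower (9 and 7 after scaling), beside 13.1% and 36.5%. Among the 4 kinases that phosphorylate eIF2 alpha, 0 were higher and 2 lower in PBS-perfused against PFA-perfused cells, likewise in unperfused against PFA-perfused and against PBS-perfused cells. With 4 genes, 2 lower is near the 46.2%, 56.3% and 36.5% of all tested genes that were lower in these comparisons. After trimmed mean scaling the kinase counts were 1 higher and 0 lower, 0 and 1, and 1 and 1. Without scaling, 2 kinases were higher and 2 lower after injury against unperfused cells, and 1 and 3 against PFA-perfused cells. The kinase Gcn2, gene Eif2ak4, was at 3.66 and 3.39 FPKM in PFA-perfused, 3.74 and 3.73 in PBS-perfused, 1.64 and 1.85 in unperfused and 0.917 and 0.824 in injury-activated libraries. Of 6 tested genes of amino acid sensing by mTOR, 0, 0, 1, 2 and 0 were higher and 3, 4, 0, 1 and 2 lower in the 5 comparisons, in the order used for the synthetases. In that order 17.8%, 17.4%, 13.1%, 40.8% and 26.1% of all tested genes were higher and 46.2%, 56.3%, 36.5%, 29.3% and 47.3% lower.

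Partners of the mitochondrial synthetases were lower in both unfixed groups than in PFA-perfused cells. The 4 genes described are Gatb, Gatc and Qrsl1, which form the glutamine amidotransferase, and Mtfmt, which formylates the initiator methionyl-tRNA. All 4 were lower in PBS-perfused and in unperfused than in PFA-perfused cells, and 3 and 2 of them after trimmed mean scaling, where the unperfused difference of Qrsl1 turned from -0.62 to 0.16, not called. Of all tested genes 46.2% and 56.3% were lower in these comparisons, and 27.8% and 34.5% after that scaling. Mtfmt was at 10.5 and 9.10 FPKM in PFA-perfused, 2.01 and 2.06 in PBS-perfused, 1.34 and 0.677 in unperfused and 2.87 and 3.05 FPKM in injury-activated libraries. Between injury-activated and unperfused cells 3 of the 4 partners were higher and 0 lower, beside 40.8% and 29.3% of all tested genes. After trimmed mean scaling 3 were higher and 1, Gatc, was lower. Gatb was at 1.93 and 1.3 FPKM in unperfused and 13 and 14.7 FPKM in injury-activated libraries (2.52 ± 0.23, limma, adjusted p = 1.29e-05). Against PFA-perfused cells 2 were higher and 2 lower after injury, beside 26.1% and 47.3% of all tested genes. Between unperfused and PBS-perfused cells 0 were higher and 1, Mtfmt, was lower, beside 13.1% and 36.5%. After trimmed mean scaling of that comparison 1, Gatc, was higher and 0 were lower.

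Cytosolic relatives of the synthetases, which proofread, edit or release charged transfer RNA, were counted in the same comparisons. Of 7 tested, 0 were higher and 5 lower in PBS-perfused against PFA-perfused cells, beside 17.8% and 46.2% of all tested genes. In unperfused against PFA-perfused cells 0 were higher and 7 lower, beside 17.4% and 56.3%. Dtd2, a D-aminoacyl-tRNA deacylase, differed by -1.86 ± 0.18 and -2.67 ± 0.18 in these comparisons (limma, adjusted p = 5.76e-05 and 2.81e-06). Between unperfused and PBS-perfused cells 0 were higher and 3 lower, beside 13.1% and 36.5% of all tested genes. After injury 6 were higher and 0 lower against unperfused cells, beside 40.8% and 29.3%. Against PFA-perfused cells 0 were higher and 3 lower after injury, beside 26.1% and 47.3%, and the count was 2 and 0 after trimmed mean scaling.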

How the data were processed

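RNA sequencing of 8 libraries, 4 groups of 2, was analysed from the table the authors deposited, 24328 gene symbols with 1 value per library. Its header names no unit. The deposited values were taken as FPKM, since they hold decimals, their totals differ between libraries and this is a unit that StringTie gives. STAR 2.5.3a, StringTie 1.3.3 and R 3.4.1 were used with mm9, per the submitters' processing notes, and no settings or strand are given. Sequencers are named for the series (2) and in the labels (1), and their effect was not tested.

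Groups came from the labels. Values were analysed as log2(FPKM + 1), unscaled. The 12515 genes that reached 1 FPKM in 2 or more libraries were fitted with limma 3.58.1 (R 4.3.3), using a variance trend, 4 group means and no covariate. Calls were two-sided, at 0.05 after Benjamini-Hochberg adjustment. The code was tested on simulated data. Trimmed mean scaling used trims of 0.3 (ratio) and 0.05 (level). The injury-activated libraries correlated at 0.997, closer than the other groups (0.972 to 0.981), so averaging them was tried.

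The members and lists were chosen with earlier results of these data known. Named were, per comparison and compartment, the 3 largest rises and falls among called members without overlap, the extremes by mean, Gars, Kars, Eprs, Farsa, Farsb, the partner of each, and up to 3 called genes per related list. Qars, Sars, Sars2 and other genes were named after their values were seen, as counts of 5 or fewer required. Promoters are RefSeq sequences on GRCm38.p6, a different build from the expression table, matched by symbol, with Mars through its synonym Mars1. 1 related gene is not reported here.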

Additional observations from a re-analysis of the deposited data

How the results depend on the processing

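Alternatives were the replicate number as a block, no filter on low values, a pseudocount of 0.1, trimmed mean scaling, quantile normalization, each library left out in turn and, chosen after seeing the data, both injury-activated libraries averaged to 1. Of the counts of called synthetases under them, 130 lay within 1.5 times the value in the report and 10 did not. Of the counts in 1 direction, 238 lay within 1.5 times and 42 did not, and of the medians, 111 moved by less than the median SE of their genes and 29 by more. Of the gene differences, 3604 stayed on their side of the threshold with no called value changing direction, 201 lost the call, 97 gained it and 18 changed direction where one of the values was called, all 18 under the 2 scalings. Trimmed mean scaling gave 8 called mitochondrial genes instead of 13 for unperfused against PFA-perfused cells and 4 called cytosolic genes instead of 9 for unperfused against PBS-perfused cells. Leaving out 1 library gave between 3 and 11 in the latter comparison, between 7 and 12 called mitochondrial genes for injury-activated against unperfused cells (11 with all libraries), and between 8 and 13 for injury-activated against PFA-perfused cells (13 with all libraries), where averaging the injury-activated libraries also gave 8. For unperfused against PFA-perfused cells, trimmed mean scaling turned Hars to 0.81, Qars to 0.60, Qrsl1 to 0.16, Ddit3 to 0.18 and Eif2ak4 to 0.05, and quantile normalization turned Qars to 0.76, Ears2 to 0.07, Wars2 to 0.01, Qrsl1 to 0.39, Ddit3 to 0 and Eif2ak4 to 0.29. For injury-activated against PFA-perfused cells, trimmed mean scaling turned Gars to 0.54, Hars2 to 0.09, Sars2 to 0.06 and Dtd2 to 0.51, and quantile normalization turned Sars2 to 0.23, Vars2 to 0.06 and Dtd2 to 0.50. The cause of these changes was not tested. A group reduced to 1 library by leaving out its partner takes its spread from the rest of the fit. Depth in reads is unknown, and differences of genes near 1 FPKM are the least precise.

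The replicate numbers did not pair the libraries, since the correlations of same-numbered deviations between groups were 0.117, 0.062, 0.018, 0.027, -0.006 and -0.047. With the replicate block, cytosolic and mitochondrial genes called were 11 and 14 for PBS-perfused against PFA-perfused, 12 and 14 for unperfused against PFA-perfused, 9 and 5 for unperfused against PBS-perfused, 16 and 12 for injury-activated against unperfused and 18 and 13 for injury-activated against PFA-perfused cells.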

Other observations

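The factors that make and mature transfer RNA, and those that use it in mitochondria, were counted with the same fit and limma calls. Of all tested genes 17.8% were higher and 46.2% lower in PBS-perfused against PFA-perfused cells, 17.4% and 56.3% in unperfused against PFA-perfused, 13.1% and 36.5% in unperfused against PBS-perfused, 40.8% and 29.3% in injury-activated against unperfused and 26.1% and 47.3% in injury-activated against PFA-perfused cells. Of 21 genes of RNA polymerase III and its initiation factors, which transcribe transfer RNA genes, 2 were higher and 14 lower in PBS-perfused against PFA-perfused cells, 3 and 15 in unperfused against PFA-perfused, 2 and 5 in unperfused against PBS-perfused, 12 and 4 in injury-activated against unperfused and 11 and 6 in injury-activated against PFA-perfused cells. After trimmed mean scaling these counts were 3 and 8, 6 and 8, 5 and 5, 12 and 7, and 14 and 6. A pair of alternative subunits, Polr3g and Polr3gl, moved apart after injury, while both were lower in the unfixed, uninjured groups than in PFA-perfused cells. Polr3g was at 7.87 and 7.72 FPKM in PFA-perfused and 3.46 and 3.74 FPKM in PBS-perfused libraries. It was at 3.57 and 2.51 FPKM in unperfused and 32.9 and 31.7 FPKM in injury-activated libraries (3.06 ± 0.20, SE, limma, adjusted p = 2.35e-06). Polr3gl was at 13.9 and 12.2 FPKM in PFA-perfused, 9.77 and 6.36 in PBS-perfused, 1.52 and 2.03 in unperfused and 0.93 and 0.851 FPKM in injury-activated libraries. Brf1, an initiation factor, was at 64.1 and 65.7 FPKM in PFA-perfused, 38.0 and 35.3 in PBS-perfused, 10.3 and 7.76 in unperfused and 1.98 and 2.36 FPKM in injury-activated libraries. Maf1, a repressor of the polymerase, was at 60.4 and 54.4 FPKM in PFA-perfused and 5.09 and 5 FPKM in injury-activated libraries.

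Of 19 tested genes of transfer RNA maturation and export, 2 were higher and 9 lower, 2 and 12, 0 and 8, 16 and 1, then 8 and 5, with the comparisons ordered as before. The shares of lower genes in the first 3 comparisons were near those of all tested genes, and after trimmed mean scaling the counts were 6 and 7, 7 and 8, 3 and 4, 14 and 2, and 12 and 3. Tsen34, a subunit of the endonuclease that removes transfer RNA introns, was at 152 and 124 FPKM in PFA-perfused, 39.2 and 39.2 in PBS-perfused, 5.25 and 5.23 in unperfused and 27.6 and 21.1 FPKM in injury-activated libraries. Of 11 mitochondrial translation factors, 1 was higher and 10 lower, 1 and 8, 3 and 3, 8 and 0, and 6 and 2. Tufm, the mitochondrial elongation factor that carries charged transfer RNA, was at 3.77 and 1.65 FPKM in unperfused and 47.9 and 51.9 FPKM in injury-activated libraries (3.84 ± 0.29, SE, limma, adjusted p = 4.88e-06). Of 13 genes that modify mitochondrial transfer RNA, 2 were higher and 6 lower, 2 and 8, 1 and 6, 7 and 1, and 3 and 3. The shares of lower genes in the first 2 comparisons were likewise near those of all tested genes.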
